A study of Homo sapiens with 9 samples.

Results

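Late recovery after heating is described here through 1 array of U937 cells taken 6 h after 15 min at 44 °C and 1 array of such cells taken 3 h after the same heating. These are 2 of the 9 arrays of the series, and both were picked by their labels alone. U937 is a human lymphoma cell line with features of monocytes. The series sampled it at 0, 1, 3 and 6 h of recovery at 37 °C after heating at 44 or 42 °C, and once as unheated control cells at 37 °C, whose label gives no time. The 6 h and 3 h arrays after 42 °C serve as a second view of the same interval, and the 0 h and 1 h arrays after 44 °C and the control place each level. The title of the series sets it in heat-induced apoptosis. The sources used here do not say whether the cultures came from 1 stock on 1 day, so recovery time, culture and array cannot be told apart.

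Heat unfolds proteins, and cells answer through heat shock factors, which raise transcripts of chaperones that refold or clear damaged proteins. Immediate early genes, which code for transcription factors and phosphatases with short-lived transcripts, respond to many stresses and decline again during recovery. Interferon-stimulated genes, the IFIT family among them, are raised through interferon receptors or directly through interferon regulatory factors, and act against viruses.

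The deposited intensities had trimmed means of 191 on the 6 h array and 205 on the 3 h array, within the range of 101 to 211 over all arrays. They were multiplied so that each array had a trimmed mean of 100, and any scaled value below 12.5, their overall median, was set to that floor. On either array 48.3% of probe sets lay above the floor. The ratio of 3′ to 5′ signal, a sign of RNA integrity, was 1.18 at 6 h and 1.31 at 3 h for ACTB, and 0.979 at 6 h and 0.939 at 3 h for GAPDH. Of 15 measured markers of monocytes and U937 cells, 12 were above the floor on both arrays, with a summed signal of 10118 at 6 h and 11095 at 3 h, while MPO, FCGR1A and CD14 were at the floor on both. T cell markers were above the floor for 1 of 12 genes at 6 h and 2 of 12 at 3 h. B cell markers were above it for 5 of 8 genes at 6 h and 4 of 8 at 3 h, with MS4A1 and BLK at the floor on both and PAX5, a factor of B cell identity, at 28.4 at 6 h and 61.5 at 3 h. A gene is said to have risen or fallen between 3 and 6 h where the scaled signals differed by 2-fold or more, and a fold against the floor is a lower bound. With 1 array a side there was no replicate spread and no test was possible. The RNA came from whole cultures, so fewer cells with a transcript and less of it per cell cannot be told apart.

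More genes rose than fell between 3 and 6 h after 44 °C. Of 19775 genes, 261 (1.32%) were higher at 6 h and 168 (0.85%) were lower, and 12 (0.0607%) and 3 (0.0152%) of them differed by 4-fold or more. Among the 12014 genes above the floor on the 6 h array, the 3 h array or both, the shares were 2.17% higher and 1.4% lower, and the median log2 difference was -0.02. Without any scaling, where that median was -0.12, 236 genes were higher and 325 lower, so the excess of rises over falls turned round. The brighter signal of the pair had a median of 84.1 for the risen genes and 54.9 for the fallen ones. Among 1079 genes in the brightest of 10 bins of genes above the floor on both arrays, none passed 2-fold. With a higher floor of 79.0, 27 of the 68 genes past 2-fold that are named by rule stayed past it. Of the risen genes, 104 lay within 2-fold of the control at 3 h and 2-fold or more above it at 6 h, and 55 lay 2-fold or more below the control at 3 h and within 2-fold of it at 6 h. Of the fallen genes, 91 lay within 2-fold of the control at 3 h and 2-fold or more below it at 6 h. Another 26 fallen genes were 2-fold or more above the control at 3 h and within 2-fold of it at 6 h. Among the lists plotted by number of calls, leukocyte surface genes, interferon effectors and chaperones had the most rises, and immediate early genes had the most falls. The lists were chosen with earlier results of these data known, so these counts describe the lists and do not test them.

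**Figure D1:**
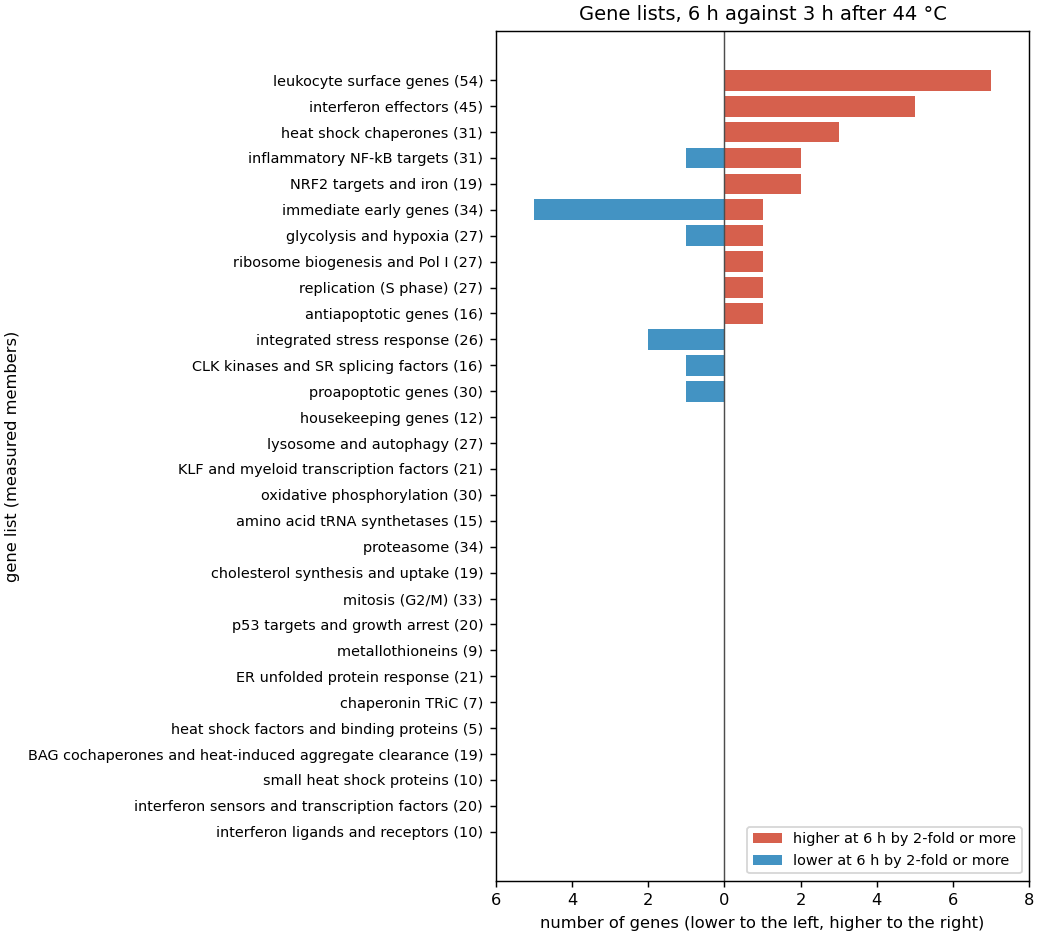
Number of members of each gene list that were higher (right) or lower (left) by 2-fold or more at 6 h than at 3 h after 44 °C, with the number of measured genes in brackets, from 1 array a side. Leukocyte surface genes had 7 rises, interferon effectors 5 and heat shock chaperones 3, while immediate early genes had 5 falls.

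The largest rises were in the IFIT genes, whose products bind viral RNA and block its translation. IFIT2 had signals of 13.3, 13.96, 12.5, 12.5 and 384 on the control array and at 0, 1, 3 and 6 h after 44 °C, and IFIT1 had 12.5, 12.5, 12.5, 12.5 and 369 in the same order. Both were thus at or near the floor until 3 h, and IFIT2 was at least 30.6-fold and IFIT1 at least 29.4-fold higher at 6 h. IFIT3 was above the floor throughout, with 70.1, 46.9, 57.7, 37.5 and 411, and was 10.98-fold higher at 6 h than at 3 h and 5.87-fold higher than on the control. A further probe set of IFIT2 and one of IFIT3 gave log2 differences of 3.73 and 3.75. After 42 °C, IFIT2 had 298 at 6 h and 19.5 at 3 h, IFIT1 had 319 at 6 h and 16.05 at 3 h, and IFIT3 had 437 at 6 h and 23.4 at 3 h. These genes were thus high on both 6 h arrays.

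Most other interferon genes did not pass 2-fold in this interval. Of 45 interferon effectors measured, 5 rose (11.1%) and none fell, beside 1.32% and 0.85% of all genes, and the median log2 difference of the 35 members above the floor at 6 h or 3 h was 0.16, against -0.02 for all such genes. The remaining pair that rose was dim. OAS1, an enzyme that senses double-stranded RNA, had 29.3 at 6 h and the floor signal at 3 h, and IFIT5, named here after its value was seen, had 25.6 at 6 h and the floor signal at 3 h. The second probe set of OAS1 gave a log2 difference of 0.22. With a lower floor this probe set was the brighter one on average and was read instead, so the call of OAS1 was lost. ISG15, a ubiquitin-like protein of the same response, had 476 at 6 h and 281 at 3 h, under 2-fold. IFI16, a sensor of DNA, had 502 at 6 h and 843 at 3 h. None of 10 interferon ligands and receptors and none of 20 sensors and transcription factors of the pathway passed 2-fold, with IRF9 at 41.5 at 6 h and 21.5 at 3 h and IRF1 at 95.5 at 6 h and 55.4 at 3 h.

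Promoter windows of IFIT1, IFIT3 and IFIT5 are shown because these genes rose together, and that of IFIT2 is not shown here. Each runs from 250 bases before to 25 bases after the RefSeq transcription start on GRCh38.p14, on the plus strand. Capitals mark the core of the interferon-stimulated response element, searched as GAAA, 2 bases of any kind and GAAA, read on either strand.
IFIT1: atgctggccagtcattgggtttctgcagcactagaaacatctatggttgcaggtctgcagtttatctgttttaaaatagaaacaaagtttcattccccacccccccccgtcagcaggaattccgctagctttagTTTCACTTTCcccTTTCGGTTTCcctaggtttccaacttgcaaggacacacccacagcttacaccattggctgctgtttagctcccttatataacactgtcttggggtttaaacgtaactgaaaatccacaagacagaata
IFIT3: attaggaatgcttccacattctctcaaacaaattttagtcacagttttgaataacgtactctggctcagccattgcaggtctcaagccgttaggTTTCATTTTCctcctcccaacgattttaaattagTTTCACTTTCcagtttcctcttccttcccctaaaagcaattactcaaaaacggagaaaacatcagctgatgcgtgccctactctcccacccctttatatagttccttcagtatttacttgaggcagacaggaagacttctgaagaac
IFIT5: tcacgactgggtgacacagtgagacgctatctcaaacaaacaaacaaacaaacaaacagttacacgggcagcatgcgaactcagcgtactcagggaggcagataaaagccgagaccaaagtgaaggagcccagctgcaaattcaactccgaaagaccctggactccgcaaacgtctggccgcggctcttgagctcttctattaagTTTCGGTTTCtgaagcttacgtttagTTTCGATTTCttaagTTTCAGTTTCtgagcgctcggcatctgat
These lie at chr10:89392373-89392647 for IFIT1, chr10:89327747-89328021 for IFIT3 and chr10:89414318-89414592 for IFIT5. IFIT1 held 2 matches that began 116 and 103 bases before the start, and IFIT3 held 2 at 156 and 122 bases. IFIT5 held 3, the first at 45 and the last at 4 bases before the start. Searched on both strands over windows of 250 bases before to 50 after each start, the motif was in 3.65% of 27305 windows, in 2.95% of the 15382 measured genes with a window and in 24 of 36 interferon effectors with a window (66.7%). It was in 12 of 206 risen genes with a window (5.83%) and in 0 of 119 fallen genes. Most of the effectors that carry the motif therefore did not pass 2-fold in this interval, and OAS1 rose with no match in its window.

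**Figure D2:**
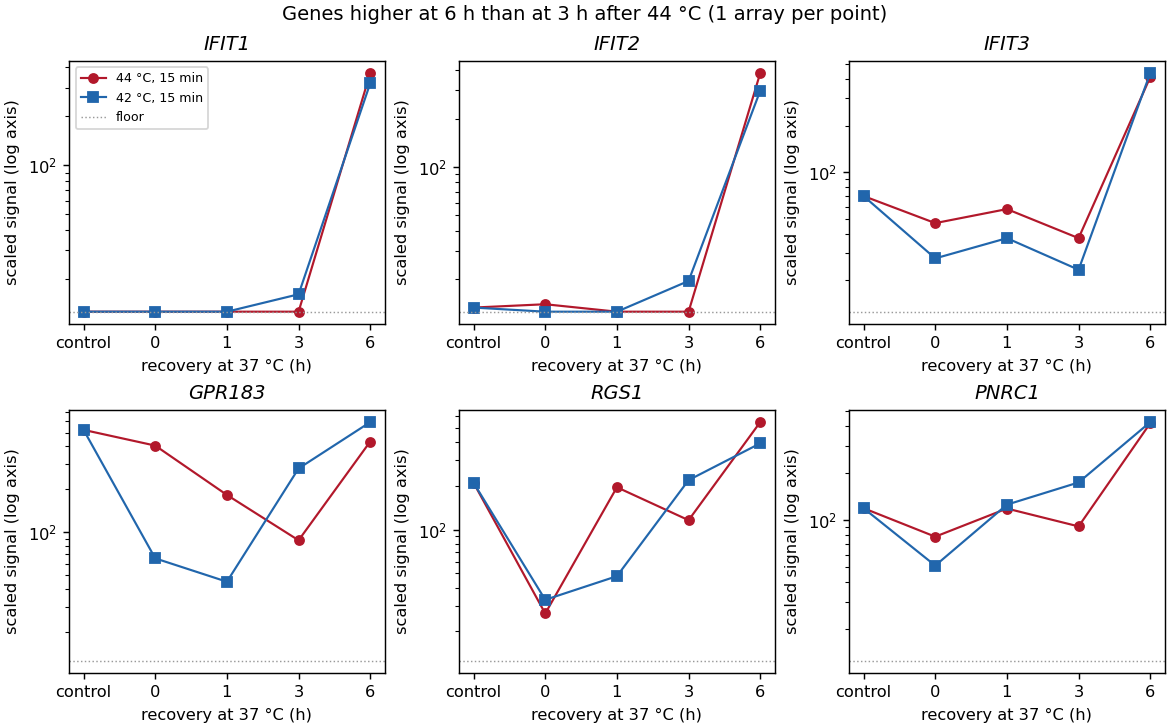
Scaled signal (log axis) of 6 genes on the control array and at 0, 1, 3 and 6 h of recovery after 44 °C (red circles) and 42 °C (blue squares), 1 array per point, with the floor dotted. IFIT1 and IFIT2 stay at or near the floor of 12.5 until 3 h after 44 °C, while GPR183 declines to 87.8 at 3 h and is at 433 at 6 h.

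GPR183, RGS1 and PNRC1 also rose more than 4-fold. GPR183, a receptor for oxysterols that guides immune cells, had signals of 522, 405, 183, 87.8 and 433 on the control and at 0, 1, 3 and 6 h after 44 °C. It was lowest at 3 h, and its 4.93-fold rise brought it near the control level. RGS1, which shortens signalling of G protein-coupled receptors, had 209.9, 26.5, 196, 116 and 549 in the same order and was 4.73-fold higher at 6 h than at 3 h. Its second probe set gave a log2 difference of 2.21, close to the 2.24 of the first. PNRC1, a nuclear receptor coactivator, had 119, 78.2, 118, 91.04 and 417 and was 4.58-fold higher at 6 h than at 3 h. All 3 genes were also higher at 6 h than at 3 h after 42 °C, though RGS1 by less than 2-fold, with log2 differences of 1.08 for GPR183, 0.84 for RGS1 and 1.28 for PNRC1.

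Of 54 leukocyte surface genes measured, 7 rose (12.96%) and none fell, beside 1.32% and 0.85% of all genes, while the median of the 44 members above the floor at 6 h or 3 h was 0.04. Because this list was chosen with earlier results of these data known, its share of rises is a description only. MS4A6A, a membrane protein of macrophages, increased at each step, with 33.3, 58.9, 65.7, 103 and 413 on the control and at 0, 1, 3 and 6 h, and was 4.02-fold higher at 6 h than at 3 h. Its 6 other probe sets above the floor ranged from -0.01 to 1.97 in log2. CD69, an early activation antigen, had 169 at 6 h and 71.3 at 3 h after 44 °C, but 151 at 6 h and 213 at 3 h after 42 °C. CD180, a relative of the Toll-like receptors, had 65.2 at 6 h and 21.9 at 3 h. The remaining members, named here after their values were seen, were the costimulatory ligand CD86 with 31.5 at 6 h and 13.4 at 3 h, the proton-sensing receptor GPR65 with 79.5 at 6 h and 34.6 at 3 h, and the chemokine receptor CCR1 with 140.2 at 6 h and 61.3 at 3 h. CXCR4, the receptor for CXCL12, had 2006 at 6 h and 1034 at 3 h and missed 2-fold, while its 2 other probe sets gave 1.13 and 1.26.

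Several further genes among the 15 largest rises had low signals at 3 h. PLAC1, a membrane protein of the placenta, was at 67.4 at 6 h and at the floor at 3 h, at least 5.37-fold higher. SPECC1, a protein of the cytoskeleton, was at 55.4 at 6 h and at the floor at 3 h. Rises from the floor of this kind made up 44 of the 261. IL7R, the receptor for interleukin 7, had 18.2, 12.5, 14.9, 41.9 and 164 and was 3.91-fold higher at 6 h than at 3 h, and RHEBL1, a small GTPase near RHEB, had 37.2, 42.4, 54.8, 88.1 and 346 and was 3.92-fold higher. After 42 °C both were already high at 3 h, IL7R with 130.3 at 6 h and 134 at 3 h and RHEBL1 with 338 at 6 h and 312 at 3 h. GPR34, a receptor for lysophosphatidylserine, had 151 at 6 h and 35.5 at 3 h. TICRR, needed to start DNA replication, had 212 at 6 h and 49.7 at 3 h, and its second probe set gave a log2 difference of 0.55. SNX25, a sorting nexin, had 84.1 at 6 h and 21.5 at 3 h, but its second probe set gave a log2 difference of 0.01.

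No chaperone transcript fell by 2-fold between 3 and 6 h after 44 °C, and 3 of them rose. Of 31 heat shock chaperones and cochaperones measured, 3 rose (9.68%) and none fell, beside 1.32% and 0.85% of all genes, and the median log2 difference was 0.26, with 25 above 0. Among all genes 5652 were above 0 and 6362 below 0. All 12 housekeeping genes and 45 of 51 cytosolic ribosomal protein genes were above 0 too. SERPINH1, the collagen chaperone HSP47, had signals of 12.5, 12.5, 12.5, 102 and 371 on the control and at 0, 1, 3 and 6 h and was 3.64-fold higher at 6 h than at 3 h. HSPA4L, a nucleotide exchange factor of the HSP110 family, had 137, 190.3, 163, 264 and 839.7 and was 3.18-fold higher. DNAJA4, a cochaperone that hands clients to HSP70, had 20.5, 40.8, 165, 557 and 1244 and was 2.23-fold higher, although its 3 other probe sets above the floor ranged from -0.14 to 1.66 in log2. Each had a signal above the control already at 3 h.

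Read from the brightest probe set of each gene, the classical heat shock transcripts differed by under 2-fold between 3 and 6 h. HSPA6, the strictly stress-induced HSP70, had 138, 131, 3988, 6645 and 6587 on the control and at 0, 1, 3 and 6 h after 44 °C. DNAJB1, the cochaperone that stimulates HSP70, had 742, 1008, 4168, 6661 and 7378, and BAG3, which links HSP70 to autophagy, had 176, 156, 869, 2869 and 3602. All 3 were more than 4-fold above the control at both 3 and 6 h. ZFAND2A, a proteasome adaptor induced by arsenite and heat, had 4119 at 6 h and 2669.8 at 3 h. HSPH1, an HSP110, had 7209 at 6 h and 4471 at 3 h, while its 2 other probe sets gave log2 differences of 0.75 and 1.05. HSP90AA1, the inducible HSP90, had 8514 at 6 h and 7352 at 3 h. Among small heat shock proteins none of 10 passed 2-fold: HSPB1 had 6867 at 6 h and 4904 at 3 h, CRYAB, at the floor in control cells, had 175 at 6 h and 102 at 3 h, and HSPB8 was at the floor on both. None of 19 BAG cochaperones and clearance factors, none of 7 subunits of the chaperonin TRiC and none of 21 genes of the unfolded protein response of the endoplasmic reticulum passed 2-fold, beside 1.32% higher and 0.85% lower among all genes, shares at which lists of this size hold about 0 calls. HSPA1A, HSPA1B and HSPA8, which had no probe set with a single gene symbol, were not analysed here.

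After 42 °C the same interval gave a lower set of values. The median of the 31 chaperones was -0.09 there, with 8 above 0, none risen and 2 fallen, and in 30 of 31 the log2 difference was larger after 44 °C. HSPA6 had 4525 at 6 h and 10652 at 3 h after 42 °C and fell 2.35-fold. DNAJB1 had 6359 at 6 h and 12298 at 3 h after 42 °C. Housekeeping genes differed in the same sense, with a median of 0.14 after 44 °C and -0.22 after 42 °C and 10 of 12 larger after 44 °C, and so did 51 cytosolic ribosomal protein genes, with 0.09 and -0.26. The part of this shift of bright genes in the chaperone values was not tested.

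**Figure D3:**
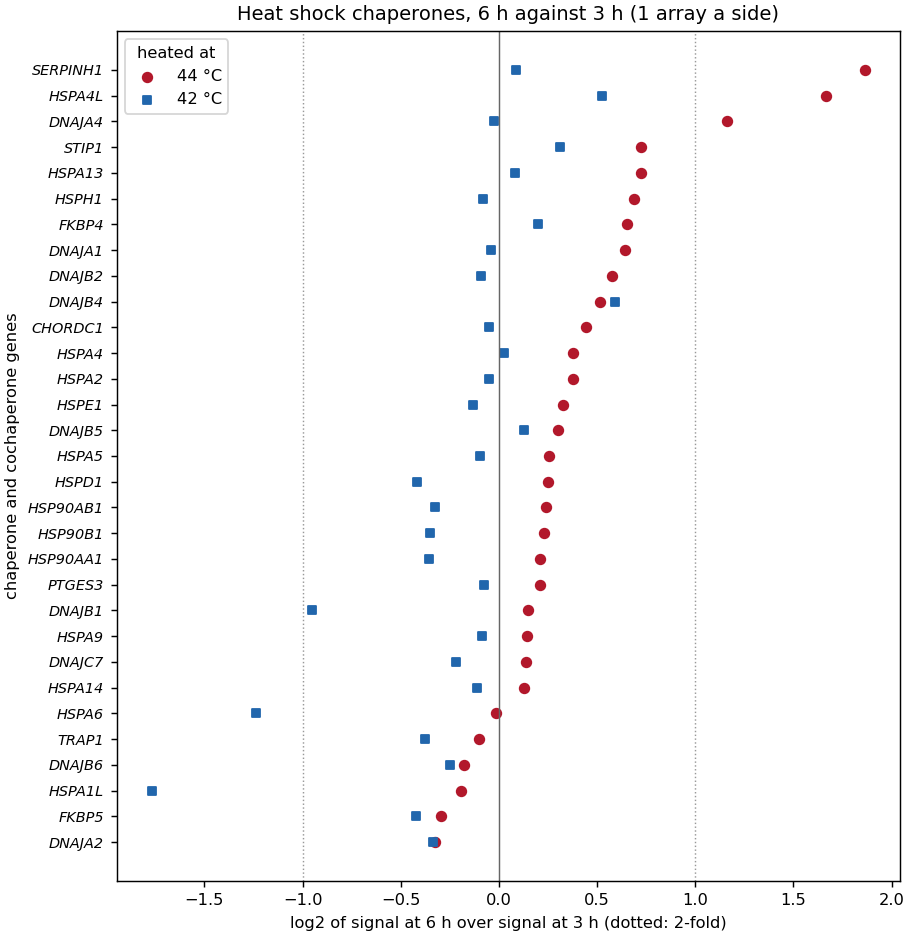
Log2 of the signal at 6 h over that at 3 h for each of 31 chaperone genes after 44 °C (red circles) and 42 °C (blue squares), 1 array a side, with 2-fold marked by dotted lines. SERPINH1, HSPA4L and DNAJA4 pass 2-fold after 44 °C, while HSPA6 and HSPA1L pass it downwards after 42 °C.

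Promoters of a chaperone that rose and of one that did not pass 2-fold are set side by side because both carry the same heat shock element. Windows and build are as above, both on the plus strand, and capitals mark GAA, TTC and GAA with 2 bases of any kind between each pair, read on either strand.
SERPINH1: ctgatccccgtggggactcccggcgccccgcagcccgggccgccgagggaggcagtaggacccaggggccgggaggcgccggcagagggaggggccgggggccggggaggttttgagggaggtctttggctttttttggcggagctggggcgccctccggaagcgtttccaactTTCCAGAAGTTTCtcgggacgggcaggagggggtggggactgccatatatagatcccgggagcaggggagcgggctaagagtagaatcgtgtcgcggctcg
HSPA6: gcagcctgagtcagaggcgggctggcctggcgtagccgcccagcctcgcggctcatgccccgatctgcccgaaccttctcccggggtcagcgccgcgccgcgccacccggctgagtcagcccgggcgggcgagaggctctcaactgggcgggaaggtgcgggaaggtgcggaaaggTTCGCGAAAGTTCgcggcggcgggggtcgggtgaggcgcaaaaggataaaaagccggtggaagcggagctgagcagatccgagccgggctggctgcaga
The windows lie at chr11:75562003-75562277 for SERPINH1 and chr1:161524290-161524564 for HSPA6. The match began 76 bases before the start in SERPINH1 and 74 bases before it in HSPA6. The motif was in 0.487% of all 27305 windows, in 0.429% of measured genes with a window, in 5 of 29 chaperones with a window (17.2%) and in 1 of 206 risen genes (0.485%). HSPA4L and DNAJA4 rose with no match in theirs.

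Among the lists, immediate early genes held the most falls. Of 34 measured, 5 fell (14.7%), beside 0.85% of all genes, and 1, RGS1, rose, while the median over the 32 above the floor at 6 h or 3 h was -0.04. DUSP1, a phosphatase that switches off MAP kinases, had signals of 59.7, 44.7, 547, 1009 and 336 on the control and at 0, 1, 3 and 6 h after 44 °C. It was highest at 3 h and 3.0-fold lower at 6 h, still above the control. Of its 2 other probe sets above the floor, one gave a log2 difference of -1.17 and one 0.36. EGR3 and EGR1 are zinc finger transcription factors. EGR3 had 66.8, 32.3, 151, 148 and 34.6 and was 4.27-fold lower at 6 h than at 3 h, and EGR1 had 194, 301, 365, 284 and 78.02 and was 3.64-fold lower. After 42 °C EGR1 had 256 at 6 h and 149 at 3 h, the opposite sign but under 2-fold. KLF2, a factor of quiescence in leukocytes and endothelium, had 20.9, 17.6, 51.5, 120.0 and 55.2 and was 2.17-fold lower at 6 h than at 3 h. IER3, an early response gene named here after its value was seen, had 273 at 6 h and 589.8 at 3 h. JUN had 959.7 at 6 h and 1510.5 at 3 h, under 2-fold. However, the 3 other probe sets of JUN above the floor ranged from -1.40 to -0.27 in log2. FOS had 108 at 6 h and 90.4 at 3 h, and IER5, an activator of heat shock factor HSF1, had 4894 at 6 h and 4847 at 3 h, both under 2-fold.

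In the integrated stress response, the program driven by ATF4, 2 of 26 genes fell (7.69%) and none rose, beside 0.85% and 1.32% of all genes, and the median log2 difference was 0.00. ATF3, a repressor induced by stress, had 57.9, 25.6, 123, 375 and 119.7 on the control and at 0, 1, 3 and 6 h, and was 3.14-fold lower at 6 h than at 3 h. The 2 other probe sets of ATF3 above the floor gave log2 differences of -0.44 and -0.33, and the median over its probe sets, -0.33, does not pass 2-fold. CHAC1, which degrades glutathione, had 15.98, 14.4, 18.1, 92.5 and 37.8 and was 2.45-fold lower at 6 h than at 3 h. After 42 °C, ATF3 had 95.99 at 6 h and 196 at 3 h, and CHAC1 had 38.1 at 6 h and 71.9 at 3 h. Other genes of the program differed by under 2-fold: PPP1R15A, which restores translation, had 647 at 6 h and 736 at 3 h, SESN2 had 315 at 6 h and 329 at 3 h, and DDIT3 had 108 at 6 h and 91.5 at 3 h. CLK1, a kinase of splicing factors, had 138, 104, 209, 576 and 265 and fell 2.18-fold between 3 and 6 h, the 1 fall among 16 CLK kinases and SR proteins (6.25%, beside 0.85% of all genes).

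Windows of the 2 fallen stress response genes both hold a match to the core of the amino acid response element, the element that ATF4 binds. It was searched as TGATG, 1 base of any kind and AA on either strand and is marked in capitals. A single transcription start per gene was searched, and binding of ATF4 was not measured.
ATF3: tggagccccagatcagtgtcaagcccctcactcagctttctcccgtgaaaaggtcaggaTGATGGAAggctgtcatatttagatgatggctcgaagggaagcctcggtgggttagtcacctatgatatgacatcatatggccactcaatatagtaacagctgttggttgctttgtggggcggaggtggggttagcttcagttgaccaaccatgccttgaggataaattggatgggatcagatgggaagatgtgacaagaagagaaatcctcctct
CHAC1: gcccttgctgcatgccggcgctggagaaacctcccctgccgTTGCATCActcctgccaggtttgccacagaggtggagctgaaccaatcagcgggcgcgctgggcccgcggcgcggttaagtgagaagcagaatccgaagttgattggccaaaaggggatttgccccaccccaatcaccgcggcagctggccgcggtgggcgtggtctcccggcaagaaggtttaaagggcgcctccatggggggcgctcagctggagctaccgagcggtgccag
They lie at chr1:212565157-212565431 for ATF3 and chr15:40953221-40953495 for CHAC1, on the plus strand, with matches that begin 191 and 209 bases before the start. The motif was in 3.67% of all windows, in 2.62% of measured genes with a window, in 5 of 22 genes of the list with a window (22.7%) and in 2 of 119 fallen genes (1.68%).

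**Figure D4:**
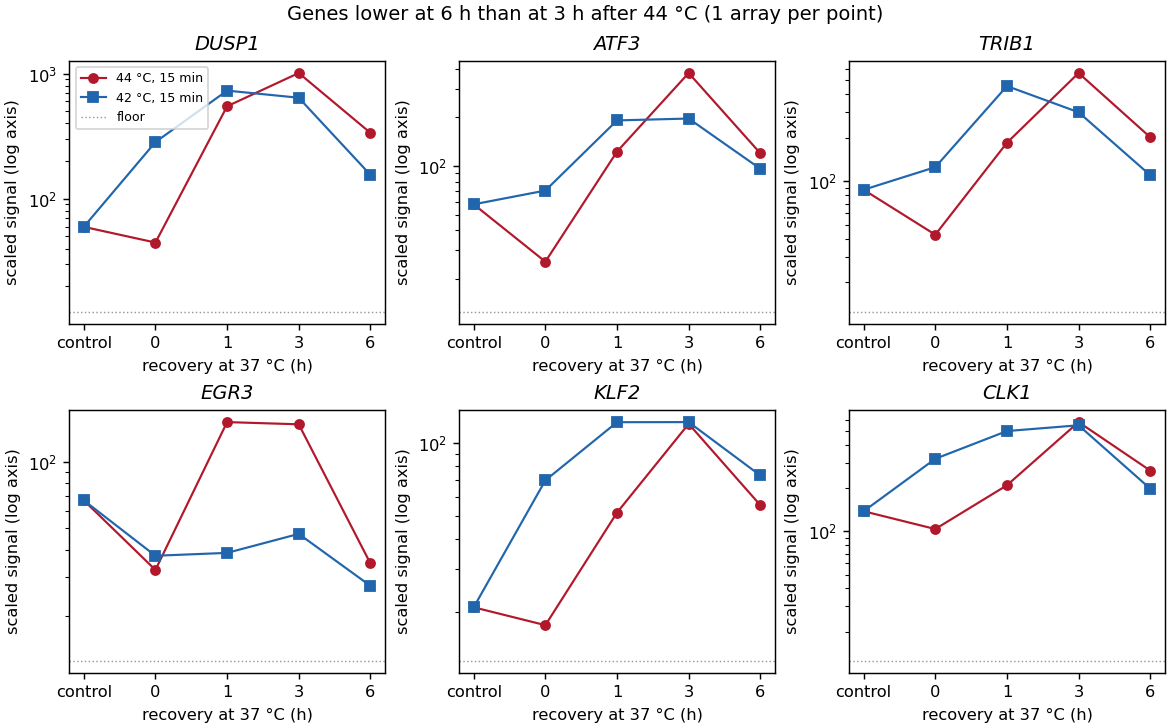
Scaled signal (log axis) of 6 genes on the control array and at 0, 1, 3 and 6 h of recovery after 44 °C (red circles) and 42 °C (blue squares), 1 array per point, with the floor dotted. After 44 °C DUSP1 is at 336 at 6 h and 1009 at 3 h, ATF3 at 119.7 at 6 h and 375 at 3 h, and TRIB1 at 202 at 6 h and 560.3 at 3 h.

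Genes that were higher at 1 h after 44 °C than on the control, called early heat genes here, were followed through the interval. At 1 h after 44 °C, 183 genes (0.925%) were 2-fold or more above the control and 90 (0.455%) were as far below it, arrays that have no part in the comparison of 6 h with 3 h. Of the 183 early heat genes, 17 were lower at 6 h than at 3 h (9.29%) and 7 were higher (3.83%), beside 0.85% and 1.32% of all genes, and their median log2 difference was -0.05. Most early heat genes thus did not change by 2-fold. Of the 174 early heat genes above the floor at 6 h or 3 h, 9.77% were lower and 4.02% higher. Genes in neither early set and above the floor in the same way had 1.24% lower and 2.04% higher. Only 68 early heat genes had a 3 h signal of at least 50, of which 9 were lower (13.2%) and 3 higher (4.41%). Of the 8309 other genes with such a signal, 0.975% were lower and 1.13% higher. That filter uses the 3 h array, a side of the comparison, so it favours falls over rises. Besides DUSP1, ATF3, EGR3 and KLF2, the fallen early heat genes included TRIB1, a pseudokinase that directs protein degradation, with 87.4, 42.7, 185, 560.3 and 202, and HBEGF, a ligand of the EGF receptor, with 149.7, 141, 322, 465 and 199. Both were named here after their values were seen, and both fell after 42 °C too, TRIB1 to 110.1 at 6 h against 300.0 at 3 h and HBEGF to 176 at 6 h against 482 at 3 h. DNAJA4 and COL1A1, a fibrillar collagen, were among the 7 that rose. COL1A1 had 12.5, 12.5, 35.2, 85.3 and 200.5, while the other fibroblast markers COL1A2, COL3A1, DCN and LUM were at the floor at both times.

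Of the 90 early low genes, 14 were higher at 6 h than at 3 h (15.6%) and 5 were lower (5.56%), with a median of 0.09. GPR183 was the largest rise among them. THAP3, a zinc finger protein, had 36.04, 30.97, 16.8, 12.5 and 47.8 and was at least 3.81-fold higher at 6 h than at 3 h. ITGA5, the fibronectin receptor subunit, had 473 at 6 h and 223 at 3 h, and NOTCH1 had 265 at 6 h and 128 at 3 h. Both were named after their values were seen. Among the other 19502 genes, 240 rose (1.23%) and 146 fell (0.749%). Of the 80 early low genes above the floor at 6 h or 3 h, 17.5% were higher and 6.25% lower. Of the 11760 other genes above it, 2.04% were higher and 1.24% lower. Only 23 early low genes had a 3 h signal of at least 50, of which 4 were higher (17.4%) and 2 lower (8.70%). Of the 8309 other genes with such a signal, 1.13% were higher and 0.975% lower.

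Few genes of oxidative stress and inflammation passed 2-fold, and the list of NRF2 and iron genes had a median log2 difference of 0.00 and no falls. HMOX1, which breaks down heme, had 114, 94.7, 119, 526 and 1449 on the control and at 0, 1, 3 and 6 h and was 2.75-fold higher at 6 h than at 3 h, one of 2 rises among 19 NRF2 and iron genes (10.5%, beside 1.32% of all genes). The other, OSGIN1, had 31.6 at 6 h and 14.7 at 3 h. CCL2, a monocyte chemokine, was highest in unheated cells with 1464, 915, 783, 858 and 255 and was 3.37-fold lower at 6 h than at 3 h. Of 31 inflammatory NF-kB targets, 1 fell (3.23%), CCL2, and 2 rose (6.45%), beside 0.85% and 1.32% of all genes. The risen ones were IL1A, an interleukin, with 46.1 at 6 h and 18.1 at 3 h, and REL, a subunit of NF-kB, with 553 at 6 h and 276 at 3 h. IL1B had 138 at 6 h and 214 at 3 h, CXCL8 had 401 at 6 h and 448 at 3 h, and TNF had 33.1 at 6 h and 27.9 at 3 h, all under 2-fold.

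Of 30 proapoptotic genes none rose and 1 fell (3.33%, beside 0.85% of all genes), TNFRSF10A, a TRAIL receptor, with 23.6 at 6 h and 47.5 at 3 h, and its 2 other probe sets gave -0.04 and 0.09 in log2. Of 16 antiapoptotic genes none fell and 1 rose (6.25%, beside 1.32% of all genes), PIM1, a survival kinase, with 793 at 6 h and 394 at 3 h, a call lost under quantile normalisation at a log2 difference of 0.99. PMAIP1, the BH3-only protein NOXA, had 496, 326, 794, 1326 and 1335 with a log2 difference of 0.01 between 6 and 3 h. The initiator caspase gene CASP8 had 460.4 at 6 h and 289.8 at 3 h, under 2-fold, with a second probe set at 1.64 in log2. BCL2 had 103 at 6 h and 141 at 3 h, MCL1 had 1597 at 6 h and 1524 at 3 h, and BMF had 21.1 at 6 h and 28.2 at 3 h. None of 20 p53 targets and growth arrest genes passed 2-fold, with CDKN1A at 246 at 6 h and 261 at 3 h.

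Other lists held 1 call in a direction or none, which for lists of this size is near the background of 1.32% higher and 0.85% lower. CDC6, which loads the replicative helicase, had 1164 at 6 h and 544 at 3 h and was the 1 rise among 27 replication genes (3.70%), while none of 33 mitotic genes passed 2-fold. HK2, the hexokinase of the first step of glycolysis, had 286 at 6 h and 606 at 3 h and fell 2.12-fold, with its 2 other probe sets at -1.14 and -0.98. ADM, the vasodilator adrenomedullin, rose in the same list of 27 genes of glycolysis and hypoxia, with 67.99 at 6 h and 31.5 at 3 h. None of 30 genes of oxidative phosphorylation, 34 of the proteasome or 9 metallothioneins passed 2-fold.

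The largest fall of all was in GNAO1, a G protein alpha subunit, with 49.7, 84.7, 44.9, 151 and 16.4 on the control and at 0, 1, 3 and 6 h after 44 °C. It was 9.18-fold lower at 6 h than at 3 h, but had 63.8 at 6 h and 34.6 at 3 h after 42 °C, and with the median over its probe sets its log2 difference was 0.00. EEF2KMT, a methyltransferase of elongation factor 2, had 85.6, 110, 17.6 and 74.7 on the control and at 0, 1 and 3 h after 44 °C. It was at the floor at 6 h, at least 5.95-fold lower than at 3 h, but had been low at 1 h too. The transcription factor KLF15 was at the floor at 6 h and at 40.2 at 3 h. Of the 168 falls, 36 ended at the floor in this way. GINS4, a helicase subunit, had 81.6 at 6 h and 284 at 3 h, with its 3 other probe sets between -0.50 and 0.29 in log2. PLCB2, a phospholipase, had 32.9 at 6 h and 109 at 3 h. SOX12, a transcription factor, had 15.1 at 6 h and 52.2 at 3 h, but its second probe set gave a log2 difference of -0.20. TMEM229B, SEMA5B and ATP2B3, a membrane protein, a semaphorin and a calcium pump, were at the floor at 6 h and had 44.5, 43.6 and 41.96 at 3 h. NACA4P, with 649 at 6 h and 2042 at 3 h, and RPL36A, at the floor at 6 h and 44.8 at 3 h, have near-identical copies in the genome, so their values are uncertain. Another probe set above the floor existed for 114 risen genes, of which 87 had all such probe sets with the same sign, and for 63 fallen genes, of which 41 did. With the median over all probe sets of a gene in place of the brightest, log2 differences were under 1 in size for KLF2 (-0.56), KLF15 (-0.84), PLCB2 (-0.86), GINS4 (-0.10), TMEM229B (-0.01) and ATP2B3 (0.00) among the falls. The same held for IL1A (0.67), REL (0.63), CDC6 (0.95), THAP3 (0.96) and WDR20 (0.71) among the rises. For KLF2, KLF15, PLCB2, ATP2B3, GNAO1, IL1A and THAP3, every other probe set was at the floor on both arrays. Their medians were therefore bound to be smaller in size and do not show that probe sets disagree.

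The interval after 42 °C gave 468 genes higher at 6 h than at 3 h (2.37%) and 238 lower (1.2%), from arrays that the 44 °C comparison does not use. Both comparisons shared 67 rises, which are 25.7% of those after 44 °C and 14.3% of those after 42 °C, and 19 falls, which are 11.3% and 7.98%. The genes that rose after 44 °C had a median log2 difference of 0.55 after 42 °C, with 206 of 261 above 0, and the genes that fell had -0.26, with 103 of 168 below 0. Of all 19775 genes, 6544 were above 0 and 6489 below 0 after 42 °C, and the rest were at 0. Over the 10280 genes above the floor on all 4 arrays, the log2 differences correlated with a Pearson r of 0.365 and a Spearman rho of 0.357, a description across genes, which are not independent. Apart from the IFIT genes and DUSP1, the largest shared changes included the RNA-binding protein gene CELF6, with 50.1 at 6 h and 14.1 at 3 h after 44 °C and 86.1 at 6 h and 20.6 at 3 h after 42 °C. WDR20, a partner of deubiquitinases, had 153 at 6 h and 42.5 at 3 h after 44 °C and 158 at 6 h and 57.4 at 3 h after 42 °C. HYAL2, a hyaluronidase, was the largest shared fall by the smaller of both log2 differences, with 28.8 at 6 h and 89.2 at 3 h after 44 °C and 14.5 at 6 h and 60.8 at 3 h after 42 °C. HMCN2, an extracellular matrix protein, was at the floor on both 6 h arrays, against 35.2 at 3 h after 44 °C and 35.5 at 3 h after 42 °C. In 11 genes the 2-fold calls had opposite signs at the 2 temperatures. Of the 168 falls after 44 °C, 8 were rises after 42 °C, beside 2.37% of all genes. Of the 261 rises after 44 °C, 3 were falls after 42 °C, beside 1.2% of all genes.

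**Figure D5:**
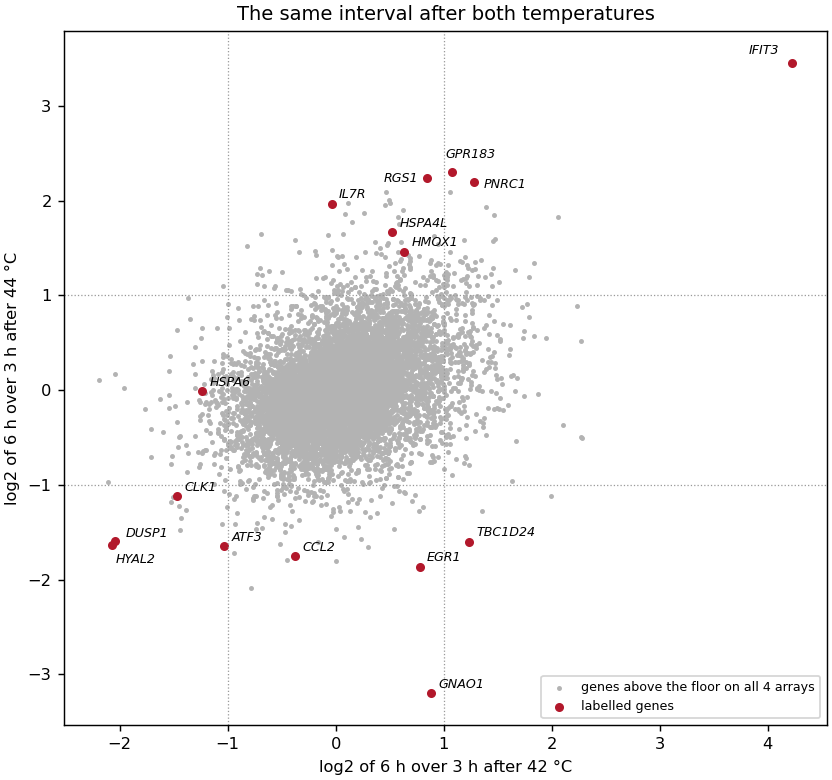
Log2 of the signal at 6 h over that at 3 h after 44 °C (vertical axis) against the same after 42 °C (horizontal axis) for 10280 genes above the floor on all 4 arrays (grey) with named genes in red, 1 array a side, and 2-fold marked by dotted lines. IFIT3 stands far from the rest at 3.46 after 44 °C and 4.22 after 42 °C, DUSP1 is low on both axes, and GNAO1 is low after 44 °C alone at -3.20.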

How the data were processed

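Total RNA of U937 cells was measured on Human Genome U133 Plus 2.0 arrays, with 1 array per condition. The deposited values are linear intensities of 54675 probe sets on 9 arrays, MAS5 signals per the submitters' processing notes. The scaling target is not given in the sources used here.

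Each array was multiplied to a trimmed mean of 100 over 54613 non-control probe sets, leaving out 2% at either end; the factors were 0.524 at 6 h and 0.488 at 3 h after 44 °C. Lower values were set to the floor of 12.5 before log2. Of all probe sets 41097 had 1 gene symbol, 1801 several and 11777 none, and the first kind gave 19775 genes, each read from its brightest probe set on average. A log2 difference of 1 or more was called, with no test. Python 3.11.15, numpy 2.4.6, pandas 2.3.3 and matplotlib 3.10.9 were used, and the counting was tested on simulated data.

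Groups, genes and lists were chosen with earlier results of these data known; the zinc finger and ribosomal protein lists were added after seeing the values. Named were the 15 largest rises and falls with no other probe set of opposite sign by 0.5 or more (clone and frame names, histones and immunoglobulins left out), up to 4 called members per list, a fixed set of stress genes whatever their values, and up to 10 genes called the same way and up to 10 called in opposite ways after 42 °C. Not every gene that the rule names is reported here. Alternatives were other floors, scalings, probe set rules, a 4-fold rule, and genes above the floor on all arrays. RefSeq (GRCh38.p14) gave promoter windows for 15382 of the genes, a single window per gene. Precision is limited by the number of arrays.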

Additional observations from a re-analysis of the deposited data

Results flagged for a closer look

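The genes below passed 2-fold between 3 and 6 h after both temperatures, but in opposite directions. With 1 array per condition the difference between the temperatures was not tested.

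TVP23C, a Golgi membrane protein, ACTRT3, an actin-related protein, and HTR2B, a serotonin receptor, were higher at 6 h than at 3 h after 44 °C and lower after 42 °C. TVP23C had log2 differences of 1.24 after 44 °C and -1.20 after 42 °C, ACTRT3 had 1.10 after 44 °C and -1.04 after 42 °C, and HTR2B had 1.01 after 44 °C and -1.28 after 42 °C. Of these, ACTRT3 alone was above the floor on all 4 arrays, with 130.4 at 6 h and 60.8 at 3 h after 44 °C and 90.8 at 6 h and 187 at 3 h after 42 °C.

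TBC1D24, a protein of vesicle traffic, fell by 1.60 in log2 after 44 °C and rose by 1.23 after 42 °C, with 24.5 at 6 h and 74.4 at 3 h after 44 °C and 68.2 at 6 h and 29.1 at 3 h after 42 °C. RASEF, a Rab-family GTPase, had log2 differences of -1.28 after 44 °C and 1.36 after 42 °C. ZNF335, a zinc finger protein, had -1.12 after 44 °C and 1.99 after 42 °C, and its second probe set had 0.64 after 44 °C. USH1G, a scaffold of sensory hair cells, had -1.28 after 44 °C and 1.11 after 42 °C. SLC60A2, a solute carrier, had -1.25 after 44 °C and 1.02 after 42 °C, TMEM266, a membrane protein, had -1.09 after 44 °C and 1.02 after 42 °C, and DTWD2, an RNA-modifying enzyme, had -1.07 after 44 °C and 1.01 after 42 °C. USH1G, SLC60A2 and DTWD2 were at the floor at 6 h after 44 °C, and all 3 had signals under 50 at both times after 42 °C.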

How the results depend on the processing

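Counts depended on the floor. In the order genes higher, genes lower, early heat genes lower, early heat genes higher, early low genes higher, and calls shared with 42 °C, the reported counts were 261, 168, 17, 7, 14 and 86. The early sets were drawn again under each setting, from 183 heat and 90 low genes as reported. With the floor at the 25th percentile (2.91) they were 1213, 1214, 229, 174, 173 and 561 (early sets of 1441 and 1143), and with the floor at the 75th (79.0) 85, 34, 5, 1, 4 and 26 (sets of 27 and 15). Of all calls 60.8% were rises, against 49.98%, 71.4% and, without scaling, 42.1%. Without scaling, 325 genes were lower, with 44, 22 and 8 in early sets of 606 and 44. With the median over probe sets, 11 of 115 early heat genes were lower, 3 higher, and 56 calls were shared with 42 °C. A 4-fold rule left 12, 3, 0, 0, 0 and 3 (sets of 10 and 2). Over the 9913 genes above the floor on all arrays, 169 were higher, with 9, 2 and 6 in early sets of 92 and 39 and 55 shared. Quantile normalisation and a common median kept every count within 1.5 times. ZNF335 turned to 0.64 in log2 with the median over probe sets. Of 68 named calls, 22 held under every alternative run for them, 27 with the higher floor and 46 with the median over probe sets. Probe sets at the floor on both arrays pull that median towards 0. Restricting the genes to those above the floor at 6 h or 3 h, chosen after seeing the data, left 261 and 168. These counts could not change, because a gene at the floor on both arrays has a log2 difference of 0. No paired analysis was possible because each condition had 1 array, and no replicate could be left out. Signals near the floor limit the folds of dim genes.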

Other observations

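Lists of cholesterol synthesis, ribosome biogenesis and tRNA synthetases had medians below 0, and 1 of their members passed 2-fold. Of 19 genes of cholesterol synthesis and uptake none rose or fell by 2-fold after 44 °C, 17 had a log2 difference below 0, and the median log2 difference was -0.29, against -0.02 for all genes above the floor at 6 h or 3 h. INSIG1, a sterol sensor, was nearest to the limit with 1425 at 6 h and 2836 at 3 h, and HMGCS1, an enzyme of the pathway, had 313 at 6 h and 421 at 3 h. Of 27 genes of ribosome biogenesis and RNA polymerase I, 20 had a value below 0 and the median was -0.29, while TAF1D, a factor of the same polymerase, rose with 87.2 at 6 h and 33.7 at 3 h. The median of 15 tRNA synthetase genes was -0.14, with 13 below 0. After 42 °C the medians were -0.27 for the cholesterol genes, -0.29 for ribosome biogenesis and -0.28 for the synthetases. Over the scalings, floors and probe set rules run, the medians after 44 °C ran from -0.39 to -0.28, from -0.39 to -0.22 and from -0.24 to -0.14 in the same order.

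Zinc finger genes with a ZNF symbol, a list made after seeing the values, had 24 rises and 4 falls among 425 measured (5.65% and 0.941%), beside 1.32% and 0.85% of all genes. The median of the 290 members above the floor at 6 h or 3 h was 0.22. After 42 °C 33 rose and 4 fell. ZNF680 had 148 at 6 h and 49.1 at 3 h after 44 °C, and 169.6 at 6 h and 60.9 at 3 h after 42 °C.

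Among the brightest called genes, named here for a signal of at least 1000 on the 6 h array, the 3 h array or both, 9 rose and 2, DUSP1 and NACA4P, fell. Besides HMOX1, DNAJA4 and CDC6 they were SKI, a corepressor of SMAD proteins, with 1207 at 6 h and 358 at 3 h, SGK1, a kinase of ion transport, with 1367 at 6 h and 633 at 3 h, and ANXA1, a phospholipid-binding protein of inflammation, with 1555 at 6 h and 753 at 3 h. The nuclear receptor gene PPARD had 1219 at 6 h and 546 at 3 h, SETD5, a SET domain gene, had 1047 at 6 h and 518 at 3 h, and HNRNPA1, an RNA-binding protein gene, had 1218 at 6 h and 571 at 3 h. The other probe sets of SKI above the floor gave log2 differences of 0.03 and 1.01, and those of PPARD ranged from -0.75 to 1.48.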
